A study of Homo sapiens with 24 samples.

Results

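The genes described here encode the Polycomb repressive complexes PRC1 and PRC2 and the H3K9 silencing machinery (H3K9 methyltransferases, HP1 proteins, TRIM28, the HUSH complex, MORC2 and related silencers). They were chosen by symbol, 41 genes of the 58735 Ensembl genes in the count tables, and all 41 were found and passed the filter on low counts in each of the 15 comparisons. RNA was sequenced from HCT116 cells, an established human colorectal carcinoma line in which OsTIR1, the plant F-box protein that recognises auxin, was expressed from a doxycycline-inducible promoter. WT is that line without a degron, UHRF1-AID carries the auxin-inducible degron tag (mAID, with mClover) at the C-terminus of UHRF1, DNMT1-AID carries mAID with mRuby2 at the N-terminus of DNMT1, and UHRF1-AID/DNMT1-AID carries both. Each of the 4 lines was sampled before auxin (day 0) and after 4 days of auxin (day 4), with 3 libraries in each of the 8 groups. All day 4 cells, WT included, had received 2 µg/mL doxycycline with 20 µM of the TIR1 inhibitor auxinole for 1 day and then 2 µg/mL doxycycline with 500 µM auxin. The AID lines were made as independent clones that served as biological replicates in the study. The labels do not tie a replicate number to a clone, so the p-values measure the spread between these libraries.

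Polycomb complexes keep developmental genes off. PRC2 methylates lysine 27 of histone H3, PRC1 ubiquitinates histone H2A, and CBX proteins of canonical PRC1 read the H3K27 mark. H3K9 methylation, laid down by the SUV39, EHMT and SETDB enzymes and read by the HP1 proteins, marks heterochromatin and repeats, and TRIM28, HUSH and MORC2 bring this silencing to transposable elements. UHRF1 and DNMT1 keep DNA methylation through replication, and the question of the comparisons here is whether the transcripts of these 2 parallel silencing systems differed once either protein, or both, had been degraded.

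The libraries held between 15824804 and 25073821 counts on genes. Their file headers name 2 alignment folders: folder 1 holds all 12 day 0 libraries and the 3 UHRF1-AID libraries of day 4, and folder 2 the other 9 libraries of day 4, which alone hold spike-in counts. A difference between UHRF1-AID and another line at day 4, or between days in WT, DNMT1-AID and UHRF1-AID/DNMT1-AID, therefore crosses folders, and there folder and group cannot be told apart. The comparisons of DNMT1-AID and UHRF1-AID/DNMT1-AID with WT and with each other at day 4 stay within folder 2, and the day effect of UHRF1-AID stays within folder 1. Within groups, WT day 0 replicate 3 and DNMT1-AID day 0 replicates 1 and 2 stood apart: their deviation from the other libraries of the day fell with gene length (Spearman's rho -0.266, -0.269 and -0.232 over 15699 genes, a description), against 0.278 and 0.265 in the other WT libraries of day 0. UHRF1-AID day 4 replicate 2 stood at -0.0993 against 0.269 and 0.202 in replicates 1 and 3. The other WT libraries of this description, those of day 4, stood at -0.105, 0.00525 and 0.113, and the UHRF1-AID/DNMT1-AID ones at -0.156, -0.191 and -0.174. The 8 colon epithelial markers summed to 3950.0 to 8248 CPM (counts scaled to the TMM library size) over all libraries, most of it from KRT8, KRT18 and KRT19, with LGR5 and VIL1 at 0 counts in every WT library of day 4. The 9 markers of blood, stromal and endothelial cells summed to 2.17 to 22.9 CPM. The degron acts on the protein, so the transcripts of UHRF1 and DNMT1 do not check the labels.

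Per length of exon, the members spanned more than 2 orders of magnitude. TRIM28, the corepressor of KRAB zinc finger proteins, led at a mean of 165 RPKM over the 24 libraries, followed by the HP1 genes CBX3 at 93.0 and CBX1 at 54.3. Among PRC2 core genes, the histone chaperones RBBP4 (31.2 RPKM) and RBBP7 (28.4 RPKM), which also serve other complexes, stood above the scaffold SUZ12 (12.1 RPKM), the methyltransferase EZH2 (8.79 RPKM) and the H3K27me3 reader EED (3.74 RPKM). EZH1, the paralogue of EZH2, was at 0.951 RPKM, and its range of 0.601 to 1.36 RPKM lay below that of EZH2, 5.48 to 12.8 RPKM. Of the H2A ubiquitin ligases of PRC1, RING1 (25.3 to 56.0 RPKM) lay above RNF2 (12.7 to 22.4 RPKM) in every library range. The H3K9 methyltransferases were low: EHMT2 (G9a) stood at 7.63 RPKM, SUV39H2 at 6.16, SUV39H1 at 3.64, SETDB1 at 3.42, EHMT1 (GLP) at 1.22 and SETDB2 at 0.989. The ranges of EHMT2, SUV39H2, SUV39H1 and SETDB1 overlapped, and that of EHMT1 overlapped those of SETDB2 and SUV39H1. The lowest member was the PRC1.1 corepressor BCOR, with a mean of 0.806 RPKM and 15 counts in its lowest library. BCOR also had the widest spread of group means, 6.59-fold between UHRF1-AID day 0 and UHRF1-AID day 4, and the PRC2.1 subunit MTF2 the narrowest, 1.23-fold.

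**Figure D1:**
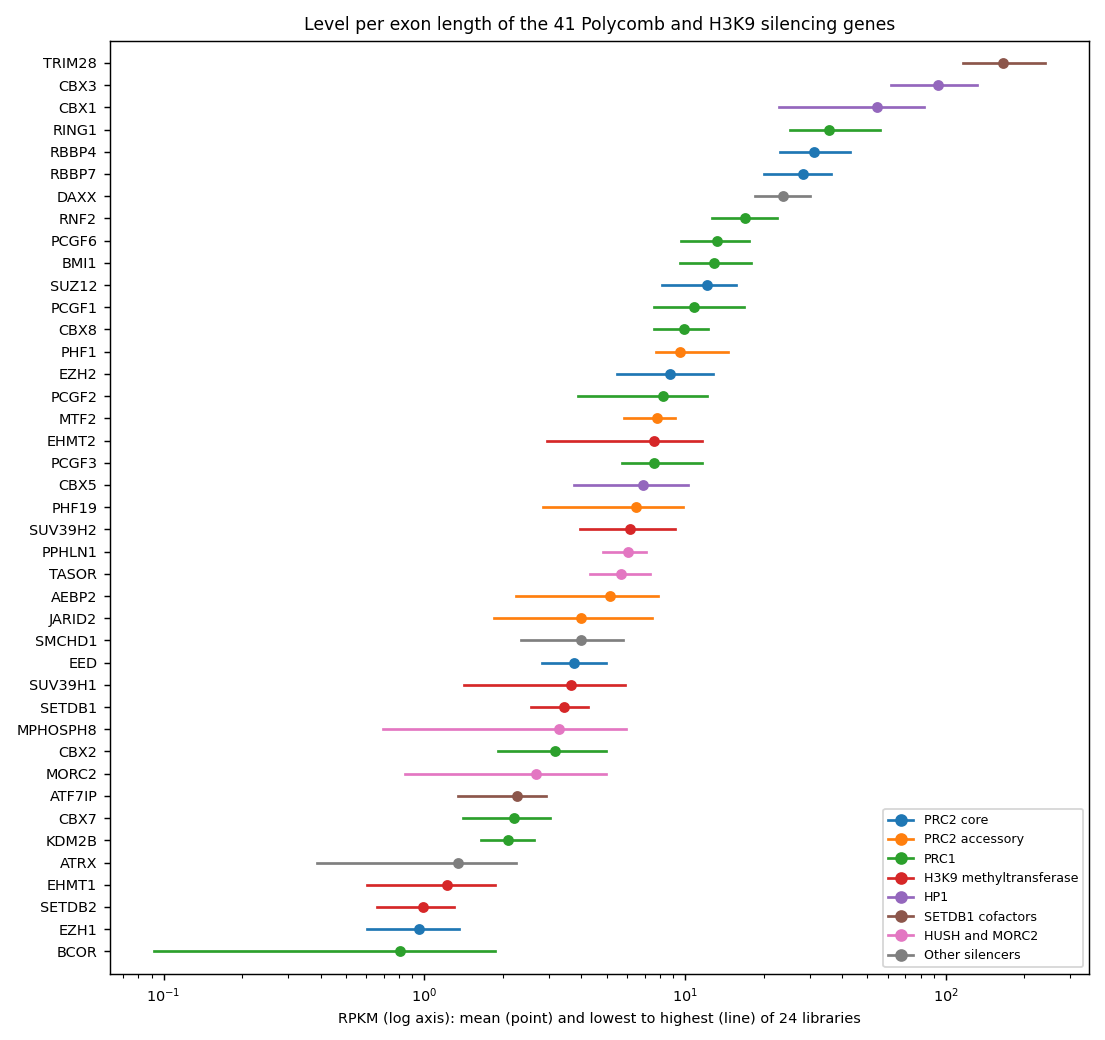
Level of each of the 41 members per exon length (RPKM, log axis), as the mean of 24 libraries (point) with the lowest and highest library (line), coloured by role. TRIM28 and CBX3 stood highest and BCOR lowest, and the lines of most neighbours overlapped.

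Reads of some members cannot be assigned with certainty, because strand and multi-mapping settings are not given in the sources used here. Exons shared with a gene on either strand covered 45.7% of PCGF2 (CISD3), 25.8% of MORC2 (MORC2-AS1), 23.4% of BMI1 (the readthrough gene COMMD3-BMI1), 21.6% of CBX7, 20.3% of SUV39H1 and 18.01% of RBBP4 (SYNC). CBX3 has 10 numbered pseudogenes in the annotation, RBBP4 7 and CBX1 5.

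The promoters were read because members moved together: 8 members (19.5%) fell from day 0 to day 4 in all 4 lines, against 10% of all genes tested in all 4, and the promoters were searched for the letters of a cell-cycle element. RefSeq gives a promoter window of 300 bases (250 before to 50 after a start site, GRCh38.p14) for 36 of the 41 members. E2F letters (TTTCCCGC, TTTCGCGC, TTTGCCGC or TTTGGCGC on either strand) occurred in 7 of 36 members (19.4%) against 3.99% of 27305 genes with such windows. Per window the shares were 12.1% of 58 and 3.31% of 35116. Of the 8 members that fell in all 4 lines, 4 held the letters (EZH2, AEBP2, PHF19 and CBX3), as did 3 of the other 28 with a window (EZH1, SUZ12 and MTF2). CHR letters (TTTGAA or TTCGAA) occurred in 13.9% of members and 19.5% of all genes, CCAAT in 47.2% and 39.7%, and the median window held 29 CpG in members and 14 in all genes. Each E2F word holds a CpG and the windows were not matched for CpG, so membership and base composition cannot be told apart. The search was chosen after the falls were seen, and the split by fall uses the same data. The 7 stretches are shown because they are the ones found. Each is read 5′ to 3′ on the strand of the gene, with the E2F letters, or their reverse complement, in capitals. A match is a description of the letters and not a binding site.
EZH1, chr17:42745137-42745166, minus strand: gcggggttttgGCGGCAAAtgacagtagtg
EZH2, chr7:148884272-148884301, minus strand: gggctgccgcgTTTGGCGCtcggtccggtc
SUZ12, chr17:31936807-31936836, plus strand: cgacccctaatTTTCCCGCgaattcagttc
AEBP2, chr12:19440438-19440467, plus strand: caaggcgacgtTTTGCCGCgatccccctgc
MTF2, chr1:93079277-93079306, plus strand: accggcagtccGCGGGAAAccaaaatggcg
PHF19, chr9:120877322-120877351, minus strand: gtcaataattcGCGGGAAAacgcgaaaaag
CBX3, chr7:26201428-26201457, plus strand: cggagtccggtTTTGGCGCcagccgctgag

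At day 4, 17 of 41 members (41.5%) differed from WT in at least 1 AID line, against 42% of the genes tested in all 3 lines. PHF19, a Polycomb-like subunit of PRC2.1, was the one member that was lower than WT in all 3 AID lines (2.44%, against 0.957% of genes), with log2 fold changes of -0.65, -0.51 and -0.63. HP1 beta (CBX1) and HP1 alpha (CBX5) were lower both in UHRF1-AID/DNMT1-AID and in DNMT1-AID, and AEBP2, a PRC2.2 subunit, was higher both in UHRF1-AID/DNMT1-AID and in UHRF1-AID. CBX5 in UHRF1-AID stood at -0.46 and passed only under some other settings, given below. In all, 9 members (22.0%) were higher in at least 1 line and 8 (19.5%) lower, against 20.6% and 21.8% of genes, and 24 (58.5%) passed in none, against 58%, among them EZH2, EED, both EHMT genes, both SETDB genes and TRIM28. The shares for at least 1 line and for none lay near those of all genes. The 3 comparisons share the WT libraries. A single member, the chromatin remodeller ATRX in UHRF1-AID, also passed the study's fold threshold of 2-fold, against 6.99% of all genes tested there. The share of all genes was 2.57% for DNMT1-AID and 11.7% for UHRF1-AID/DNMT1-AID. Here and below, passing means an adjusted p under 0.05 in the quasi-likelihood fit of edgeR, Benjamini-Hochberg adjusted across all genes tested.

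In UHRF1-AID, 7 of 41 members were higher than WT (17.1%, against 10.9% of all genes tested) and 2 were lower (4.88%, against 6.57%). The median log2 fold change was 0.11 over members and 0.03 over all genes. The 9 calls became 2 without WT replicate 1, 5 without WT replicate 2 or 3, 3 without UHRF1-AID replicate 3 and 15 without UHRF1-AID replicate 2. In DNMT1-AID no member was higher (5.02% of all genes) and 3 were lower (7.32%, against 2.93%), with a median of 0.04 over members and 0.00 over all genes. That count was 0 without WT replicate 2 or DNMT1-AID replicate 3, 1 without WT replicate 1 or DNMT1-AID replicate 1 or 2, and 9 without WT replicate 3. In UHRF1-AID/DNMT1-AID, 3 members were higher (7.32%, against 20.4%) and 7 lower (17.1%, against 17.8%), with a median of -0.09 over members and 0.02 over all genes, and the 10 calls became 5 without WT replicate 1, 6 without WT replicate 2 or UHRF1-AID/DNMT1-AID replicate 2, and 15 without WT replicate 3. Its share of members called lower was thus near that of all genes and the share called higher was below it.

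**Figure D2:**
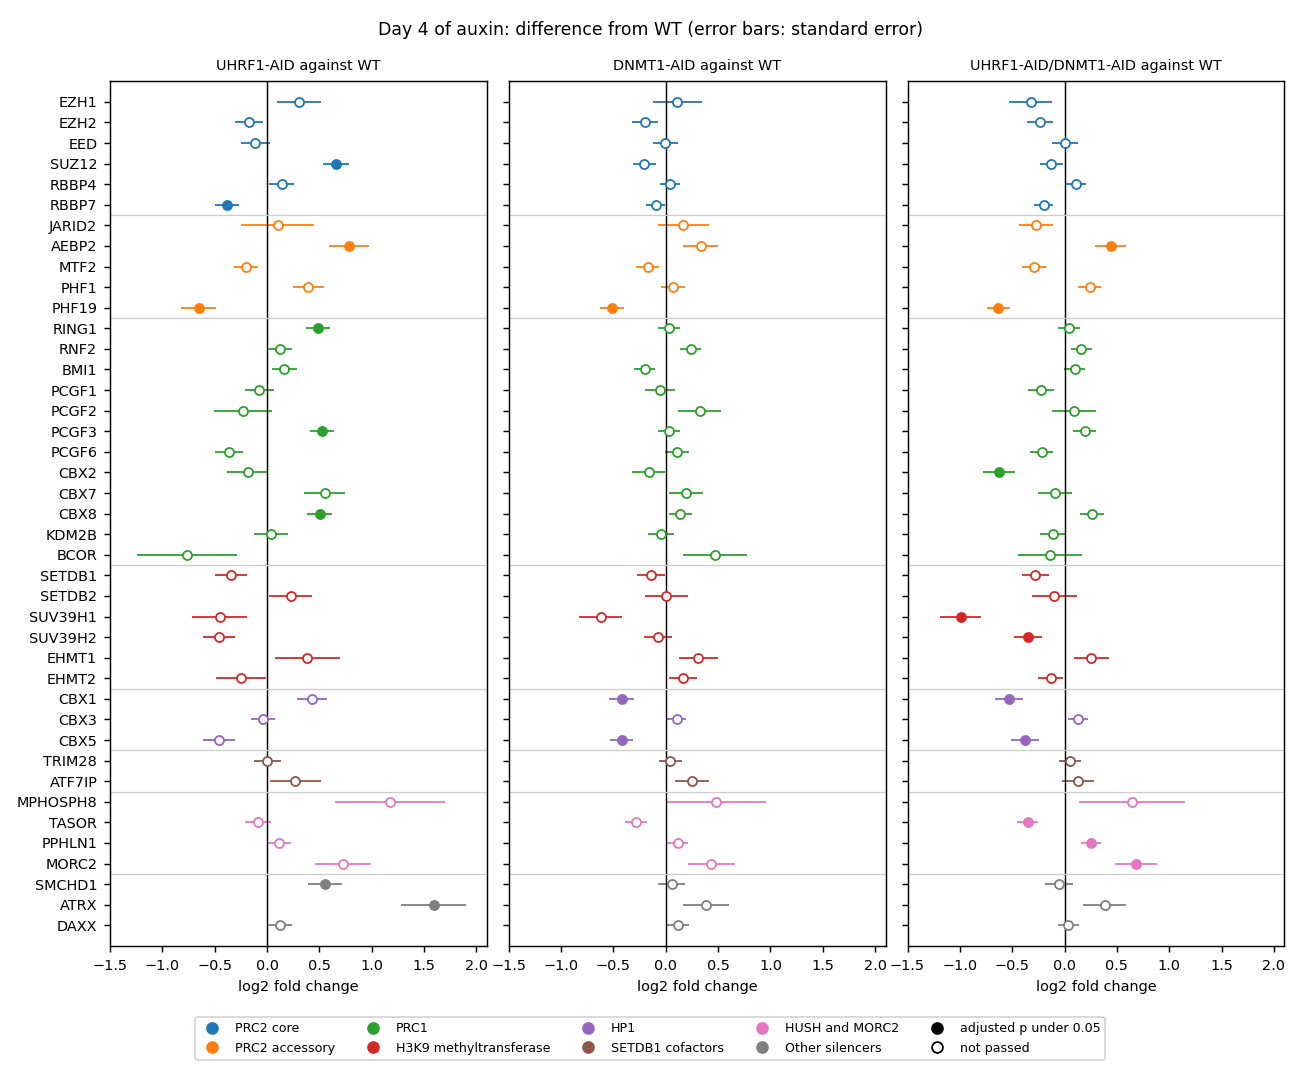
Log2 fold change against WT at day 4 (x axis, bars give the standard error) for each member (rows, by role), with filled points where the adjusted p was under 0.05. PHF19 lies left of 0 and filled in all 3 panels, and the filled points on the right of the first panel include SUZ12, ATRX and RING1.

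The UHRF1-AID libraries of day 4 are the ones of folder 1. In 6 of 41 members (14.6%: SUZ12, AEBP2, RING1, PCGF3, SMCHD1 and ATRX) all 3 UHRF1-AID libraries of day 4 lay above the other 9 libraries of day 4, against 4.52% of 15699 genes, and in no member did all 3 lie below them, against 4.82%. SUZ12, AEBP2, CBX8, SMCHD1 and ATRX, 5 of the 7 members higher in UHRF1-AID than in WT at day 4, were lower at day 4 than at day 0 in WT, a comparison that crosses folders too. RING1 and PCGF3, which make up the 7, were also higher at day 4 than at day 0 within UHRF1-AID, where all libraries are of folder 1. For all 7 the difference from WT at day 4 crosses folders, so that line and folder cannot be told apart.

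PRC2 core. EZH2, the H3K27 methyltransferase (ENSG00000106462, chr7:148807383-148884321 on the minus strand, hg38), stood at day 0 at 49.95, 48.9 and 54.7 CPM in WT, 52.4, 51.6 and 46.2 in DNMT1-AID, 51.6, 46.7 and 57.9 in UHRF1-AID, with 44.9, 41.7 and 48.4 for UHRF1-AID/DNMT1-AID. At day 4 it stood at 31.2, 36.6 and 32.2 CPM in WT, 32.7, 26.2 and 28.2 in DNMT1-AID, 26.5, 30.0 and 30.1 in UHRF1-AID, with 29.7, 24.8 and 30.1 for UHRF1-AID/DNMT1-AID. All 12 day 4 libraries lay below all 12 day 0 libraries, and at day 4 the UHRF1-AID and UHRF1-AID/DNMT1-AID libraries lay below the lowest WT library while DNMT1-AID overlapped WT. Against WT the log2 fold changes of -0.17 (SE 0.13, adjusted p = 0.40), -0.20 (SE 0.13, adjusted p = 0.36) and -0.24 (SE 0.12, adjusted p = 0.14) did not pass, in the order UHRF1-AID, DNMT1-AID, UHRF1-AID/DNMT1-AID, which is kept wherever 3 values against WT stand without a line. SUZ12, the PRC2 scaffold (ENSG00000178691, chr17:31937018-32001045 on the plus strand), stood at day 0 at 93.4, 87.1 and 84.5 CPM in WT, 93.3, 90.4 and 87.8 in DNMT1-AID, 98.04, 84.4 and 95.6 in UHRF1-AID, with 81.3, 91.8 and 92.5 for UHRF1-AID/DNMT1-AID. At day 4 it stood at 57.7, 72.8 and 59.3 CPM in WT, 56.2, 54.8 and 53.2 in DNMT1-AID, 102, 95.0 and 95.2 in UHRF1-AID, with 59.1, 59.7 and 54.3 for UHRF1-AID/DNMT1-AID, so that UHRF1-AID overlapped its own day 0 libraries while every library of the other 3 lines lay below all day 0 libraries. The log2 fold change of UHRF1-AID against WT was 0.66 (SE 0.12, adjusted p = 0.0055). SUZ12 passed there whichever of the 6 libraries was left out, whereas SUZ12 within UHRF1-AID differed between days by 0.11 (SE 0.11, adjusted p = 0.42). In folder 2, DNMT1-AID and UHRF1-AID/DNMT1-AID did not pass against WT at -0.20 (SE 0.11) and -0.13 (SE 0.11). RBBP7 was lower in UHRF1-AID than in WT, 149, 185 and 166 against 233, 218 and 217 CPM, a log2 fold change of -0.38 (SE 0.12, adjusted p = 0.048). RBBP7 did not pass without WT day 4 replicate 1 or 2 or 3 or UHRF1-AID day 4 replicate 1 or 3 (log2 fold change -0.49 to -0.32 over the 6 fits, adjusted p up to 0.16). Its call was also lost with the replicate block. EED, RBBP4 and EZH1 passed against WT in no line, with log2 fold changes of -0.32 to 0.31.

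PRC2 accessory subunits. PHF19 (ENSG00000119403, chr9:120855652-120894896 on the minus strand) helps to bring PRC2.1 to chromatin. At day 0 it stood at 59.0, 59.4 and 66.2 CPM in WT, 53.6, 61.8 and 49.2 in DNMT1-AID, 64.4, 58.0 and 58.0 in UHRF1-AID, with 53.6, 55.4 and 48.1 for UHRF1-AID/DNMT1-AID, and at day 4 at 39.3, 41.7 and 40.9 CPM in WT, 30.6, 27.4 and 27.1 in DNMT1-AID, 19.2, 29.7 and 26.8 in UHRF1-AID, with 24.8, 26.4 and 27.1 for UHRF1-AID/DNMT1-AID. No AID library of day 4 reached the lowest WT library. The log2 fold change in UHRF1-AID/DNMT1-AID was -0.63 (SE 0.11, adjusted p = 1.3e-04). PHF19 passed there whichever of the 6 libraries was left out. In DNMT1-AID it was -0.51 (SE 0.11, adjusted p = 0.011). PHF19 did not pass without WT day 4 replicate 2 or DNMT1-AID day 4 replicate 3 (log2 fold change -0.56 to -0.48 over the 6 fits, adjusted p up to 0.080). In UHRF1-AID it was -0.65 (SE 0.17, adjusted p = 0.027). PHF19 did not pass without WT day 4 replicate 1 or 2 or 3 or UHRF1-AID day 4 replicate 3 (log2 fold change -0.81 to -0.50 over the 6 fits, adjusted p up to 0.094), although within folder 1 the fall between days in UHRF1-AID, -1.21 (SE 0.17, adjusted p = 3.8e-04), passed in each such fit. AEBP2 (ENSG00000139154, chr12:19404045-19720801 on the plus strand) is a zinc finger subunit of PRC2.2. It stood at day 0 at 39.5, 48.4 and 37.6 CPM in WT, 34.7, 37.1 and 48.5 in DNMT1-AID, 44.5, 50.2 and 44.2 in UHRF1-AID, with 51.8, 49.98 and 48.6 for UHRF1-AID/DNMT1-AID, and at day 4 at 14.7, 16.3 and 21.2 CPM in WT, 19.1, 21.3 and 25.2 in DNMT1-AID, 26.4, 26.2 and 35.1 in UHRF1-AID, with 21.3, 26.1 and 23.1 for UHRF1-AID/DNMT1-AID. Each day 4 group except UHRF1-AID, whose replicate 3 reached 35.1 CPM, lay wholly below the day 0 libraries. Against WT, AEBP2 was higher by 0.78 (SE 0.19, adjusted p = 0.022) in UHRF1-AID. AEBP2 did not pass without WT day 4 replicate 1 or 2 or UHRF1-AID day 4 replicate 3 (log2 fold change 0.61 to 0.95 over the 6 fits, adjusted p up to 0.100). In UHRF1-AID/DNMT1-AID it was higher by 0.44 (SE 0.15, adjusted p = 0.023). AEBP2 did not pass without WT day 4 replicate 1 or 2 or UHRF1-AID/DNMT1-AID day 4 replicate 1 or 2 (log2 fold change 0.33 to 0.59 over the 6 fits, adjusted p up to 0.13). JARID2, MTF2 and PHF1 passed against WT in no line, with log2 fold changes of -0.29 to 0.40.

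**Figure D3:**
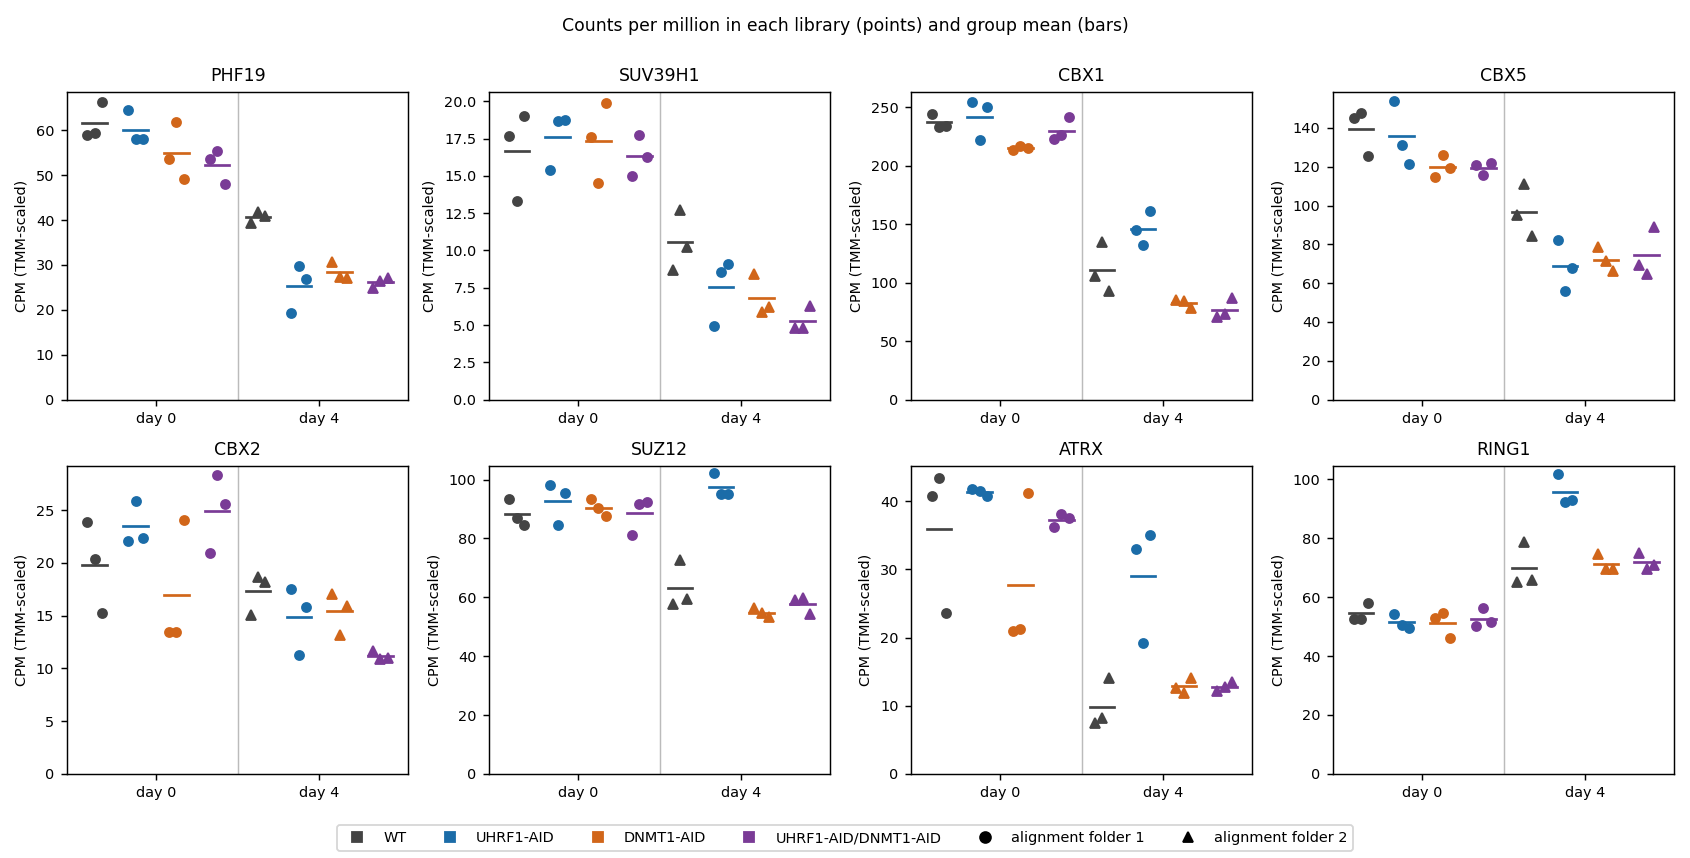
CPM (TMM-scaled counts, y axis from 0) of 8 members in each of the 24 libraries, as points by line (colour) and alignment folder (circle or triangle), with the group mean as a bar. PHF19, SUV39H1, CBX1 and CBX5 are lower at day 4 in every line, while SUZ12 and RING1 in UHRF1-AID at day 4 stand above all other libraries of that day.

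PRC1. RING1, an H2A ubiquitin ligase (ENSG00000204227, chr6:33208495-33212722 on the plus strand), stood at day 0 at 52.7, 52.7 and 58.1 CPM in WT, 53.0, 54.5 and 46.0 in DNMT1-AID, 54.2, 50.7 and 49.4 in UHRF1-AID, with 50.2, 56.3 and 51.7 for UHRF1-AID/DNMT1-AID, and at day 4 at 65.2, 78.9 and 65.7 CPM in WT, 74.9, 69.4 and 69.4 in DNMT1-AID, 102, 92.4 and 92.9 in UHRF1-AID, with 75.0, 69.6 and 71.1 for UHRF1-AID/DNMT1-AID. All day 4 libraries lay above all day 0 libraries, with UHRF1-AID highest. The log2 fold change of UHRF1-AID against WT was 0.49 (SE 0.12, adjusted p = 0.019). RING1 did not pass without WT day 4 replicate 1 or 3 or UHRF1-AID day 4 replicate 3 (log2 fold change 0.43 to 0.58 over the 6 fits, adjusted p up to 0.094). For DNMT1-AID and then UHRF1-AID/DNMT1-AID it was 0.03 (SE 0.10) and 0.04 (SE 0.10), neither of which passed. PCGF3, the PRC1.3 subunit (ENSG00000185619, chr4:705748-770640 on the plus strand), stood at day 0 at 52.4, 51.3 and 46.5 CPM in WT, 44.6, 46.0 and 48.3 in DNMT1-AID, 51.4, 51.8 and 50.01 in UHRF1-AID, with 42.4, 50.1 and 47.5 for UHRF1-AID/DNMT1-AID, and at day 4 at 52.0, 58.1 and 57.8 CPM in WT, 58.4, 52.7 and 60.1 in DNMT1-AID, 86.1, 75.8 and 73.7 in UHRF1-AID, with 56.3, 64.8 and 70.0 for UHRF1-AID/DNMT1-AID. UHRF1-AID lay above every other library of both days. Its log2 fold change against WT was 0.52 (SE 0.11, adjusted p = 0.013). PCGF3 did not pass without WT day 4 replicate 1 (log2 fold change 0.44 to 0.55 over the 6 fits, adjusted p up to 0.071), and between days within UHRF1-AID it was 0.66 (SE 0.11, adjusted p = 0.0010). CBX2 (ENSG00000173894, chr17:79778132-79787983 on the plus strand) is an H3K27me3 reader of canonical PRC1. It stood at day 0 at 23.9, 20.3 and 15.3 CPM in WT, 13.4, 13.4 and 24.04 in DNMT1-AID, 22.1, 25.9 and 22.4 in UHRF1-AID, with 20.9, 28.3 and 25.6 for UHRF1-AID/DNMT1-AID, and at day 4 at 15.04, 18.7 and 18.1 CPM in WT, 17.1, 13.2 and 15.9 in DNMT1-AID, 17.6, 11.2 and 15.8 in UHRF1-AID, with 11.6, 10.9 and 10.96 for UHRF1-AID/DNMT1-AID. The 3 UHRF1-AID/DNMT1-AID libraries of day 4 lay below all libraries of WT and DNMT1-AID of that day. The log2 fold change against WT there was -0.63 (SE 0.15, adjusted p = 0.0023). CBX2 passed there whichever of the 6 libraries was left out. In UHRF1-AID and DNMT1-AID it was -0.18 (SE 0.20) and -0.16 (SE 0.16), which did not pass.

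CBX8, another H3K27me3 reader (ENSG00000141570, chr17:79792132-79801683 on the minus strand), stood at day 0 at 40.4, 43.6 and 42.9 CPM in WT, 46.4, 46.4 and 45.1 in DNMT1-AID, 39.2, 49.8 and 44.2 in UHRF1-AID, with 46.3, 51.0 and 46.9 for UHRF1-AID/DNMT1-AID, and at day 4 at 32.3, 32.6 and 31.7 CPM in WT, 33.1, 36.8 and 36.0 in DNMT1-AID, 48.4, 43.4 and 42.1 in UHRF1-AID, with 42.6, 34.5 and 38.2 for UHRF1-AID/DNMT1-AID. UHRF1-AID did not overlap WT at day 4. The log2 fold change was 0.50 (SE 0.12, adjusted p = 0.018). CBX8 did not pass without WT day 4 replicate 1 or 2 or 3 or UHRF1-AID day 4 replicate 1 or 3 (log2 fold change 0.43 to 0.53 over the 6 fits, adjusted p up to 0.073). The other PRC1 members (RNF2, BMI1, PCGF1, PCGF2, PCGF6, CBX7, KDM2B and BCOR) passed against WT in no line. Their log2 fold changes were -0.77 to 0.55 for UHRF1-AID, -0.20 to 0.47 for DNMT1-AID and -0.23 to 0.16 for UHRF1-AID/DNMT1-AID. KDM2B, whose CXXC domain binds unmethylated CpG, differed from WT by 0.04 (SE 0.16), -0.04 (SE 0.13) and -0.11 (SE 0.12) in these lines.

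H3K9 methyltransferases. SUV39H1 (ENSG00000101945, chrX:48695554-48709012 on the plus strand) trimethylates H3K9 at pericentromeres. It stood at day 0 at 17.6, 13.3 and 19.0 CPM in WT, 17.6, 14.5 and 19.9 in DNMT1-AID, 15.4, 18.7 and 18.7 in UHRF1-AID, with 14.97, 17.7 and 16.3 for UHRF1-AID/DNMT1-AID, and at day 4 at 8.68, 12.7 and 10.2 CPM in WT, 8.40, 5.85 and 6.22 in DNMT1-AID, 4.92, 8.57 and 9.08 in UHRF1-AID, with 4.83, 4.78 and 6.25 for UHRF1-AID/DNMT1-AID. The UHRF1-AID/DNMT1-AID libraries lay below all 3 WT libraries of day 4, as did those of DNMT1-AID, while UHRF1-AID overlapped WT. In UHRF1-AID/DNMT1-AID the log2 fold change was -0.99 (SE 0.20, adjusted p = 4.7e-04), the largest fall of a member against WT in any line that passed. SUV39H1 passed there whichever of the 6 libraries was left out. In DNMT1-AID it was -0.62 (SE 0.20, adjusted p = 0.076) and in UHRF1-AID -0.45 (SE 0.26, adjusted p = 0.26), neither of which passed. Its paralogue SUV39H2 was lower in UHRF1-AID/DNMT1-AID, 18.3, 16.7 and 15.7 against 23.5, 20.1 and 21.4 CPM in WT, at a log2 fold change of -0.35 (SE 0.14, adjusted p = 0.045). SUV39H2 did not pass without WT day 4 replicate 1 or 2 or UHRF1-AID/DNMT1-AID day 4 replicate 2 or 3 (log2 fold change -0.43 to -0.29 over the 6 fits, adjusted p up to 0.14). Its call was also lost with DESeq2 or all 24 libraries in 1 fit. SETDB1, the H3K9 trimethylase of transposable elements (ENSG00000143379, chr1:150926263-150964744 on the plus strand), stood at day 0 at 29.8, 29.0 and 27.7 CPM in WT, 23.9, 25.8 and 23.6 in DNMT1-AID, 30.1, 26.7 and 26.3 in UHRF1-AID, with 25.0, 24.2 and 22.9 for UHRF1-AID/DNMT1-AID, and at day 4 at 23.6, 24.7 and 28.1 CPM in WT, 23.998, 25.0 and 20.1 in DNMT1-AID, 21.7, 19.0 and 18.2 in UHRF1-AID, with 18.9, 20.7 and 23.1 for UHRF1-AID/DNMT1-AID. UHRF1-AID and UHRF1-AID/DNMT1-AID lay below WT without overlap, and DNMT1-AID overlapped it. Its log2 fold changes against WT, -0.34 (SE 0.15, adjusted p = 0.14), -0.14 (SE 0.14, adjusted p = 0.56) and -0.28 (SE 0.13, adjusted p = 0.094) in the same order of lines, did not pass. EHMT2, the H3K9 mono- and dimethylase G9a (ENSG00000204371, chr6:31879759-31897687 on the minus strand), stood at day 0 at 84.4, 75.3 and 47.1 CPM in WT, 55.7, 45.3 and 69.9 in DNMT1-AID, 82.7, 81.4 and 84.6 in UHRF1-AID, with 73.7, 73.0 and 80.8 for UHRF1-AID/DNMT1-AID, and at day 4 at 36.5, 40.8 and 47.7 CPM in WT, 47.5, 52.0 and 40.0 in DNMT1-AID, 38.3, 21.6 and 42.7 in UHRF1-AID, with 36.4, 35.6 and 41.6 for UHRF1-AID/DNMT1-AID. WT replicate 3 and DNMT1-AID replicates 1 and 2 were lower than their group at day 0, the libraries that stood apart by gene length. Against WT at day 4 EHMT2 differed by -0.25 (SE 0.24), 0.16 (SE 0.13) and -0.13 (SE 0.12), which did not pass, nor did EHMT1 or SETDB2 in any line.

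HP1 proteins. CBX1 (HP1 beta, ENSG00000108468, chr17:48070052-48101521 on the minus strand) stood at day 0 at 245, 233 and 234 CPM in WT, 214, 217 and 215 in DNMT1-AID, 254, 222 and 250.1 in UHRF1-AID, with 223, 226 and 241 for UHRF1-AID/DNMT1-AID, and at day 4 at 105, 135 and 93.2 CPM in WT, 84.9, 84.8 and 78.4 in DNMT1-AID, 145, 133 and 161 in UHRF1-AID, with 71.0, 72.8 and 86.6 for UHRF1-AID/DNMT1-AID. All day 4 libraries lay below all day 0 libraries. Libraries of DNMT1-AID and of UHRF1-AID/DNMT1-AID lay below WT without overlap, and UHRF1-AID overlapped WT from above. With both tags the log2 fold change was -0.53 (SE 0.13, adjusted p = 0.0070). CBX1 passed there whichever of the 6 libraries was left out. In DNMT1-AID it was -0.42 (SE 0.12, adjusted p = 0.049). CBX1 did not pass without WT day 4 replicate 1 or 2 or DNMT1-AID day 4 replicate 1 or 2 or 3 (log2 fold change -0.52 to -0.25 over the 6 fits, adjusted p up to 0.26). That call was also lost with DESeq2-style size factors. In UHRF1-AID it was 0.43 (SE 0.15, adjusted p = 0.072), which did not pass. CBX5 (HP1 alpha, ENSG00000094916, chr12:54230940-54280133 on the minus strand) stood at day 0 at 145, 148 and 125 CPM in WT, 115, 126 and 119 in DNMT1-AID, 154, 131 and 122 in UHRF1-AID, with 121, 116 and 122 for UHRF1-AID/DNMT1-AID, and at day 4 at 95.2, 111 and 84.4 CPM in WT, 78.7, 71.4 and 66.1 in DNMT1-AID, 82.5, 56.1 and 67.8 in UHRF1-AID, with 69.3, 64.5 and 89.1 for UHRF1-AID/DNMT1-AID. DNMT1-AID and UHRF1-AID lay below WT without overlap, while replicate 3 of UHRF1-AID/DNMT1-AID lay within the WT range. In DNMT1-AID the log2 fold change was -0.42 (SE 0.11, adjusted p = 0.034). CBX5 did not pass without WT day 4 replicate 1 or 2 or DNMT1-AID day 4 replicate 1 or 2 or 3 (log2 fold change -0.50 to -0.31 over the 6 fits, adjusted p up to 0.22). In UHRF1-AID/DNMT1-AID it was -0.38 (SE 0.13, adjusted p = 0.037). CBX5 did not pass without WT day 4 replicate 1 or 2 or UHRF1-AID/DNMT1-AID day 4 replicate 1 or 2 (log2 fold change -0.53 to -0.27 over the 6 fits, adjusted p up to 0.14). It did not pass in UHRF1-AID at -0.46 (SE 0.16, adjusted p = 0.071). With DESeq2, no filter, all 24 libraries in 1 fit or the gene length correction, CBX5 did pass in UHRF1-AID. Its DNMT1-AID call was lost with all 24 libraries in 1 fit, and its UHRF1-AID/DNMT1-AID call with the gene length correction. HP1 gamma (CBX3) differed from WT by -0.04 (SE 0.11), 0.11 (SE 0.09) and 0.13 (SE 0.10) and did not pass.

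TRIM28, HUSH and other silencers. TRIM28 (ENSG00000130726, chr19:58544091-58550722 on the plus strand) stood at day 0 at 756, 696 and 691 CPM in WT, 710.0, 624 and 834 in DNMT1-AID, 725, 825 and 766 in UHRF1-AID, with 787, 909 and 967 for UHRF1-AID/DNMT1-AID, and at day 4 at 467, 619 and 578 CPM in WT, 596, 538 and 575 in DNMT1-AID, 555, 502 and 568 in UHRF1-AID, with 563, 535 and 620.5 for UHRF1-AID/DNMT1-AID. The lines overlapped at day 4, with log2 fold changes against WT of 0.00 (SE 0.13), 0.04 (SE 0.11) and 0.05 (SE 0.11), none of which passed, and ATF7IP, which stabilises nuclear SETDB1, did not pass either. TASOR, the scaffold of HUSH (ENSG00000163946, chr3:56620133-56683237 on the minus strand), stood at day 0 at 70.6, 72.1 and 65.1 CPM in WT, 58.8, 65.4 and 61.4 in DNMT1-AID, 70.3, 60.7 and 60.1 in UHRF1-AID, with 54.6, 55.7 and 54.8 for UHRF1-AID/DNMT1-AID, and at day 4 at 55.9, 58.2 and 54.1 CPM in WT, 49.2, 45.1 and 43.2 in DNMT1-AID, 59.5, 45.8 and 49.6 in UHRF1-AID, with 42.6, 46.0 and 42.6 for UHRF1-AID/DNMT1-AID. Libraries of DNMT1-AID and of UHRF1-AID/DNMT1-AID lay below WT without overlap. With both tags the log2 fold change was -0.35 (SE 0.10, adjusted p = 0.0095). TASOR passed there whichever of the 6 libraries was left out. Before auxin the same line differed from WT by -0.34 (SE 0.09, adjusted p = 0.093), which did not pass. The HUSH subunit PPHLN1 was higher in UHRF1-AID/DNMT1-AID than in WT by 0.26 (SE 0.09, adjusted p = 0.039). PPHLN1 did not pass without WT day 4 replicate 1 or 2 or UHRF1-AID/DNMT1-AID day 4 replicate 1 or 2 or 3 (log2 fold change 0.21 to 0.29 over the 6 fits, adjusted p up to 0.16). Its call was also lost with DESeq2, no filter, all 24 libraries in 1 fit or the replicate block. MORC2, the ATPase that HUSH recruits, was higher in that line, 12.4, 12.6 and 13.9 against 5.27, 8.79 and 10.2 CPM, by 0.68 (SE 0.20, adjusted p = 0.011). MORC2 did not pass without WT day 4 replicate 1 or UHRF1-AID/DNMT1-AID day 4 replicate 1 (log2 fold change 0.45 to 0.87 over the 6 fits, adjusted p up to 0.057). The third HUSH subunit MPHOSPH8 spread widely between libraries, 3.92, 3.40 and 11.5 CPM in WT at day 4, and did not pass.

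ATRX, which with DAXX deposits histone H3.3 in heterochromatin (ENSG00000085224, chrX:77504878-77786233 on the minus strand), stood at day 0 at 40.8, 43.4 and 23.6 CPM in WT, 21.0, 21.2 and 41.2 in DNMT1-AID, 41.9, 41.5 and 40.8 in UHRF1-AID, with 36.2, 38.1 and 37.5 for UHRF1-AID/DNMT1-AID, and at day 4 at 7.46, 8.13 and 14.01 CPM in WT, 12.6, 11.9 and 14.1 in DNMT1-AID, 33.0, 19.1 and 35.1 in UHRF1-AID, with 12.1, 12.8 and 13.5 for UHRF1-AID/DNMT1-AID. WT replicate 3 and DNMT1-AID replicates 1 and 2 were low at day 0, and at day 4 UHRF1-AID stood above all other lines, with its replicate 2 lower than replicates 1 and 3. ATRX has 19266 bases of exon, and these low libraries are the ones whose rho with gene length was lowest in their group. In WT at day 4, replicate 3 had both the highest ATRX and the highest rho, 0.113. The log2 fold change of UHRF1-AID against WT was 1.59 (SE 0.31, adjusted p = 0.010). ATRX passed there whichever of the 6 libraries was left out. Within UHRF1-AID, ATRX differed between days by -0.47 (SE 0.21, adjusted p = 0.084), which did not pass. SMCHD1, a silencer of the inactive X and of repeats, was higher in UHRF1-AID than in WT at day 4, 58.9, 41.6 and 55.5 against 31.1, 37.4 and 40.4 CPM, by 0.55 (SE 0.16, adjusted p = 0.043). SMCHD1 did not pass without WT day 4 replicate 1 or 2 or 3 or UHRF1-AID day 4 replicate 1 or 3 (log2 fold change 0.44 to 0.66 over the 6 fits, adjusted p up to 0.16). With the gene length correction ATRX passed in UHRF1-AID against WT and SMCHD1 did not. The same held with the replicate block. DAXX passed in no line against WT.

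Before auxin, no member differed from WT in any AID line by edgeR. Members with an unadjusted p under 0.05 numbered 0 for UHRF1-AID, 2 for DNMT1-AID and 8 for UHRF1-AID/DNMT1-AID. That is 0%, 4.88% and 19.5% of members, against 3.69%, 5.14% and 20.2% of all genes. At an adjusted p under 0.05, the share of all genes was 0%, 0.00723% and 3.64%. DESeq2 called 0, 0 and 2 members in the same comparisons, the 2 being the PRC1 subunits BMI1 (log2 fold change -0.44 by edgeR) and PCGF1 (-0.44) in UHRF1-AID/DNMT1-AID. Without WT day 0 replicate 3, the library that stood apart, 15 members passed in UHRF1-AID/DNMT1-AID and none in the other 2 lines. Of the members called in UHRF1-AID/DNMT1-AID at day 4, TASOR, PPHLN1 and PHF19 stood on the same side of WT before auxin, at log2 fold changes of -0.34 (SE 0.09), 0.30 (SE 0.11) and -0.23 (SE 0.10), each with an unadjusted p under 0.05.

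From day 0 to day 4 most changes were falls. PHF19, SUV39H1, EZH2, AEBP2, RBBP4 and all 3 HP1 genes (CBX1, CBX3 and CBX5) were lower at day 4 in all 4 lines (19.5% of members, against 10% of all genes tested in all 4). RING1 was higher in all 4 (2.44%, against 10.8%), and 35 of 41 members were higher in none (85.4%, against 60.6%). In WT 18 members were lower and 1 higher (43.9% and 2.44%, against 17.8% and 17.7% of all genes). In UHRF1-AID 19 were lower and 4 higher (46.3% and 9.76%, against 22.9% and 26.5%). In DNMT1-AID 17 were lower and 3 higher (41.5% and 7.32%, against 20.8% and 19.5%). In UHRF1-AID/DNMT1-AID 31 were lower and 5 higher (75.6% and 12.2%, against 32.5% and 35.2%). The median log2 fold change of members was -0.43, -0.36, -0.39 and -0.45 in these lines, beside -0.03, 0.02, -0.01 and 0.02 over all genes. In each line the share of members called lower exceeded that of all genes and the share called higher was below it. Over 2-fold, 5, 4, 3 and 11 members were lower and 1 was higher (JARID2 in DNMT1-AID), against 11.9%, 21.9%, 15.3% and 26.6% of all genes in either direction. The 19 calls in WT became 10 without WT day 4 replicate 1, and the 20 calls in DNMT1-AID became 12 without DNMT1-AID day 4 replicate 3.

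**Figure D4:**
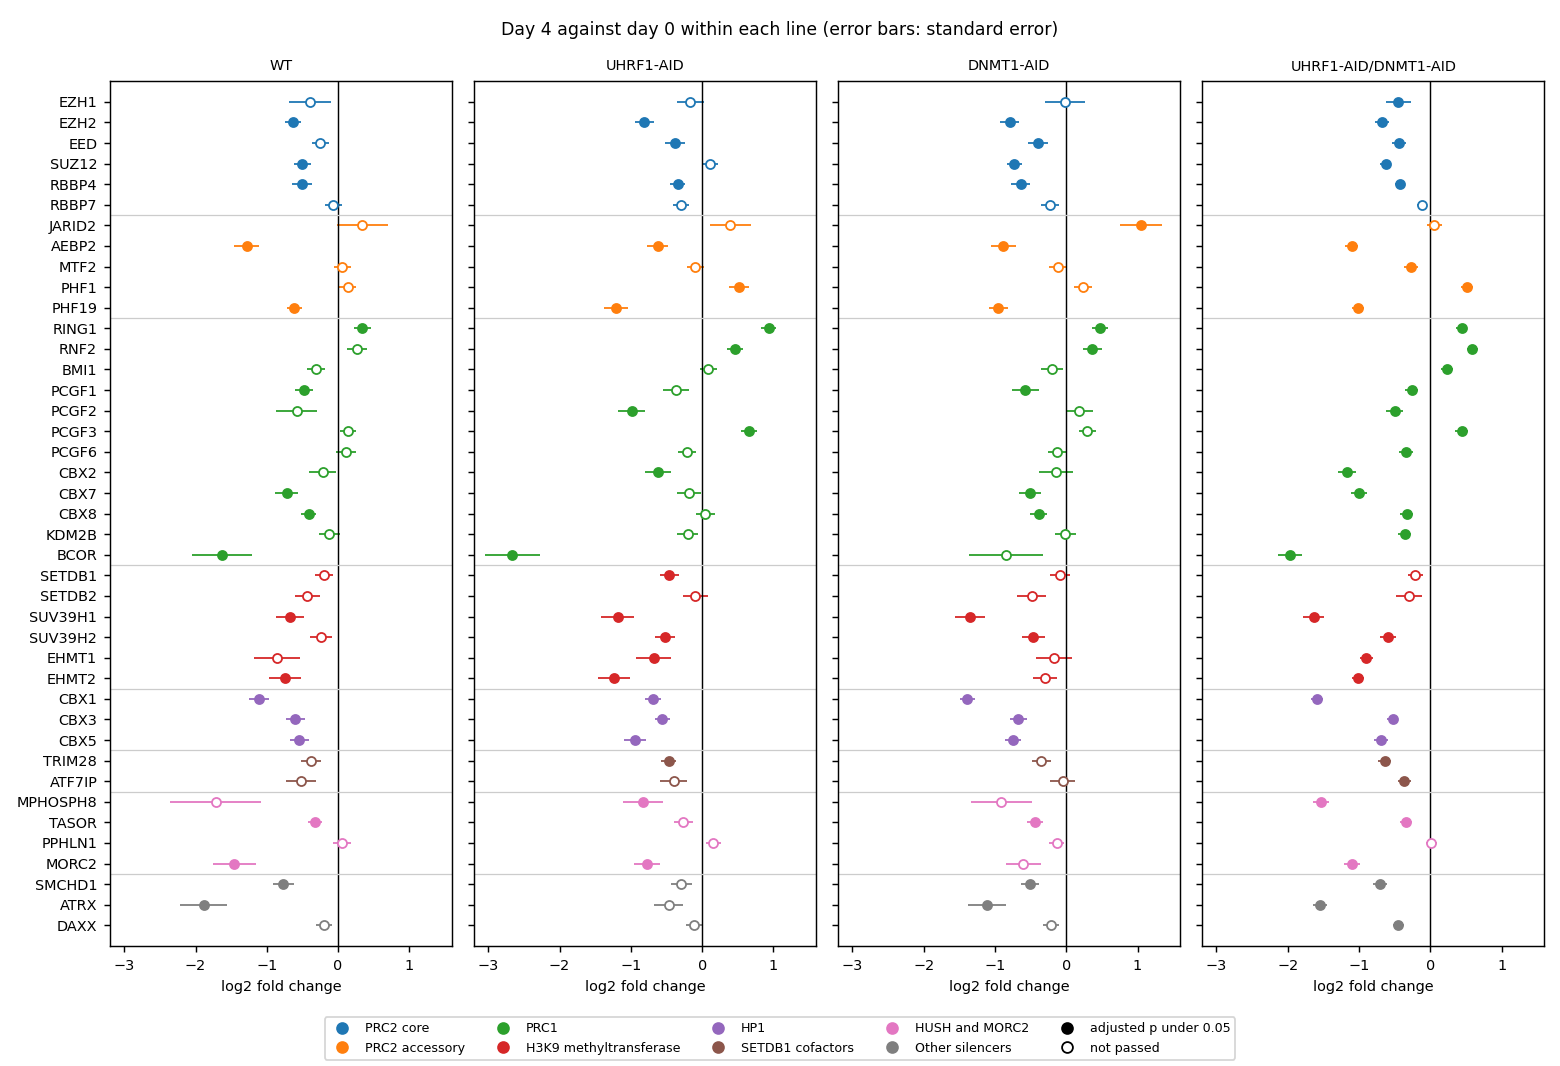
Log2 fold change of day 4 against day 0 in each line (x axis, bars give the standard error) for each member (rows, by role), with filled points where the adjusted p was under 0.05. The second panel, UHRF1-AID, compares libraries of 1 alignment folder, and most filled points in all 4 panels lie left of 0.

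The log2 change of PHF19 between days was -0.62 (SE 0.10) in WT, -0.96 (SE 0.13) in DNMT1-AID, -1.21 (SE 0.17) in UHRF1-AID and -1.01 (SE 0.09) in UHRF1-AID/DNMT1-AID. That of EZH2 was -0.64 (SE 0.12) in WT, -0.79 (SE 0.13) in DNMT1-AID, -0.81 (SE 0.13) in UHRF1-AID and -0.68 (SE 0.10) in UHRF1-AID/DNMT1-AID, and that of CBX1 was -1.11 (SE 0.14) in WT, -1.39 (SE 0.11) in DNMT1-AID, -0.69 (SE 0.12) in UHRF1-AID and -1.59 (SE 0.08) in UHRF1-AID/DNMT1-AID. The calls of PHF19, EZH2, CBX1, CBX3 and AEBP2 held in all 4 lines in each fit that left out 1 library. SUV39H1 changed by -0.68 (SE 0.20) in WT, -1.35 (SE 0.21) in DNMT1-AID, -1.19 (SE 0.23) in UHRF1-AID and -1.63 (SE 0.15) in UHRF1-AID/DNMT1-AID, and in WT it did not pass without WT day 0 replicate 1 or WT day 4 replicate 1 or 3 (log2 fold change -0.83 to -0.54 over the 6 fits, adjusted p up to 0.10). CBX5 changed by -0.55 (SE 0.13) in WT, -0.74 (SE 0.11) in DNMT1-AID, -0.94 (SE 0.16) in UHRF1-AID and -0.70 (SE 0.10) in UHRF1-AID/DNMT1-AID, and in WT it did not pass without WT day 4 replicate 1 or 3 (log2 fold change -0.65 to -0.43 over the 6 fits, adjusted p up to 0.058). For RBBP4 the call in WT did not hold without WT day 4 replicate 2 or 3 and that in UHRF1-AID not without UHRF1-AID day 0 replicate 2 or 3 or day 4 replicate 1, with adjusted p up to 0.098 and 0.095. RING1 rose by 0.34 (SE 0.12) in WT, 0.47 (SE 0.12) in DNMT1-AID, 0.93 (SE 0.11) in UHRF1-AID and 0.44 (SE 0.08) in UHRF1-AID/DNMT1-AID, and in WT it did not pass without WT day 0 replicate 1 or 2 or WT day 4 replicate 1 or 2 or 3 (log2 fold change 0.25 to 0.40 over the 6 fits, adjusted p up to 0.17).

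Members outside this set moved between days in fewer lines. EHMT2 fell at a log2 change of -0.75 (SE 0.22) in WT, -1.24 (SE 0.22) in UHRF1-AID and -1.01 (SE 0.09) in UHRF1-AID/DNMT1-AID, and in WT it did not pass without WT day 0 replicate 1 or 2 or WT day 4 replicate 1 or 2 (log2 fold change -0.96 to -0.58 over the 6 fits, adjusted p up to 0.11). TRIM28 fell at a log2 change of -0.47 (SE 0.10) in UHRF1-AID and -0.64 (SE 0.09) in UHRF1-AID/DNMT1-AID, and its -0.38 (SE 0.14) in WT and -0.35 (SE 0.13) in DNMT1-AID did not pass. SETDB1 passed in UHRF1-AID, where it fell at a log2 change of -0.46 (SE 0.14, adjusted p = 0.022). SETDB1 did not pass without UHRF1-AID day 0 replicate 1 or 3 or UHRF1-AID day 4 replicate 3 (log2 fold change -0.54 to -0.40 over the 6 fits, adjusted p up to 0.087). BCOR had the largest change of all members, -2.66 (SE 0.39, adjusted p = 5.3e-04) in UHRF1-AID, from 8.84, 16.0 and 12.5 to 2.48, 0.789 and 2.39 CPM. BCOR fell in WT too, where it did not pass without WT day 0 replicate 1 or 2 or WT day 4 replicate 1. Against WT at day 4 it passed in no line. RNF2, the other H2A ubiquitin ligase, rose by 0.46 (SE 0.11), 0.37 (SE 0.13) and 0.59 (SE 0.08) in the 3 AID lines, and in DNMT1-AID it did not pass without DNMT1-AID day 0 replicate 2 or 3 or DNMT1-AID day 4 replicate 1 or 2 or 3 (log2 fold change 0.25 to 0.46 over the 6 fits, adjusted p up to 0.15). JARID2 rose in DNMT1-AID, from 11.1, 12.1 and 21.7 to 28.1, 40.5 and 25.0 CPM, by 1.05 (SE 0.29, adjusted p = 0.021). JARID2 did not pass without DNMT1-AID day 0 replicate 1 or 2 or DNMT1-AID day 4 replicate 2 (log2 fold change 0.82 to 1.42 over the 6 fits, adjusted p up to 0.072). Its day 0 replicates 1 and 2, the libraries that stood apart, were the low ones. SETDB2 was the one member that passed neither between days in any line nor against WT at day 4.

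Taking the change of WT from that of each line cancels what both share, alignment folder included for DNMT1-AID and UHRF1-AID/DNMT1-AID. In UHRF1-AID/DNMT1-AID, SUV39H1 fell beyond WT at a difference of -1.01 (SE 0.25, adjusted p = 0.013) on the log2 scale and CBX2 at -0.996 (SE 0.24, adjusted p = 0.011), and both passed whichever of the 12 libraries was left out. The fall of CBX2 follows a higher mean than WT at day 0, 20.9, 28.3 and 25.6 against 23.9, 20.3 and 15.3 CPM. The low WT value is that of replicate 3, the library that stood apart. CBX1 and PHF19 fell beyond WT at a difference of -0.53 (SE 0.17, adjusted p = 0.046) and -0.45 (SE 0.13, adjusted p = 0.030), and BMI1 rose beyond WT by 0.49 (SE 0.13, adjusted p = 0.021). CBX1 did not pass without WT day 0 replicate 1 or 2 or UHRF1-AID/DNMT1-AID day 0 replicate 1 or 2 or 3 or WT day 4 replicate 1 or 2 or UHRF1-AID/DNMT1-AID day 4 replicate 1 or 2 (log2 fold change -0.65 to -0.38 over the 12 fits, adjusted p up to 0.12). PHF19 did not pass without WT day 0 replicate 1 or 2 or UHRF1-AID/DNMT1-AID day 0 replicate 1 or 2 or WT day 4 replicate 2 or UHRF1-AID/DNMT1-AID day 4 replicate 1 or 2 (log2 fold change -0.50 to -0.37 over the 12 fits, adjusted p up to 0.14). BMI1 did not pass without UHRF1-AID/DNMT1-AID day 0 replicate 2 or UHRF1-AID/DNMT1-AID day 4 replicate 1 or 2 (log2 fold change 0.40 to 0.61 over the 12 fits, adjusted p up to 0.059), and its rise follows a lower level than WT at day 0, 48.7, 47.2 and 49.1 against 58.9, 61.9 and 76.4 CPM. These 4 falls are 9.76% of members, against 9.12% of all genes, and the 1 rise is 2.44%, against 6.14%. The 5 calls became 2 without UHRF1-AID/DNMT1-AID day 0 replicate 2 or day 4 replicate 1 or 2, 3 without WT day 0 replicate 1 or 2, UHRF1-AID/DNMT1-AID day 0 replicate 1 or WT day 4 replicate 2, and 8 without WT day 0 replicate 3. In DNMT1-AID no member passed (0.153% of all genes did), and DESeq2 called 0. SUV39H1 differed there by -0.67 (SE 0.29, adjusted p = 0.36). In UHRF1-AID, where the folders do not cancel, RING1 alone passed, at 0.55 (SE 0.14, adjusted p = 0.049). That is 2.44% of members, beside 3.62% of all genes. RING1 did not pass without WT day 0 replicate 1 or 2 or 3 or UHRF1-AID day 0 replicate 1 or 2 or 3 or WT day 4 replicate 1 or 3 or UHRF1-AID day 4 replicate 1 or 2 or 3 (log2 fold change 0.50 to 0.64 over the 12 fits, adjusted p up to 0.14). The count of members was 0 without WT day 0 replicate 1 or 2, any UHRF1-AID library of day 0, WT day 4 replicate 1 or UHRF1-AID day 4 replicate 1 or 3, 2 without WT day 4 replicate 2 or UHRF1-AID day 4 replicate 2, and 3 without WT day 0 replicate 3.

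**Figure D5:**
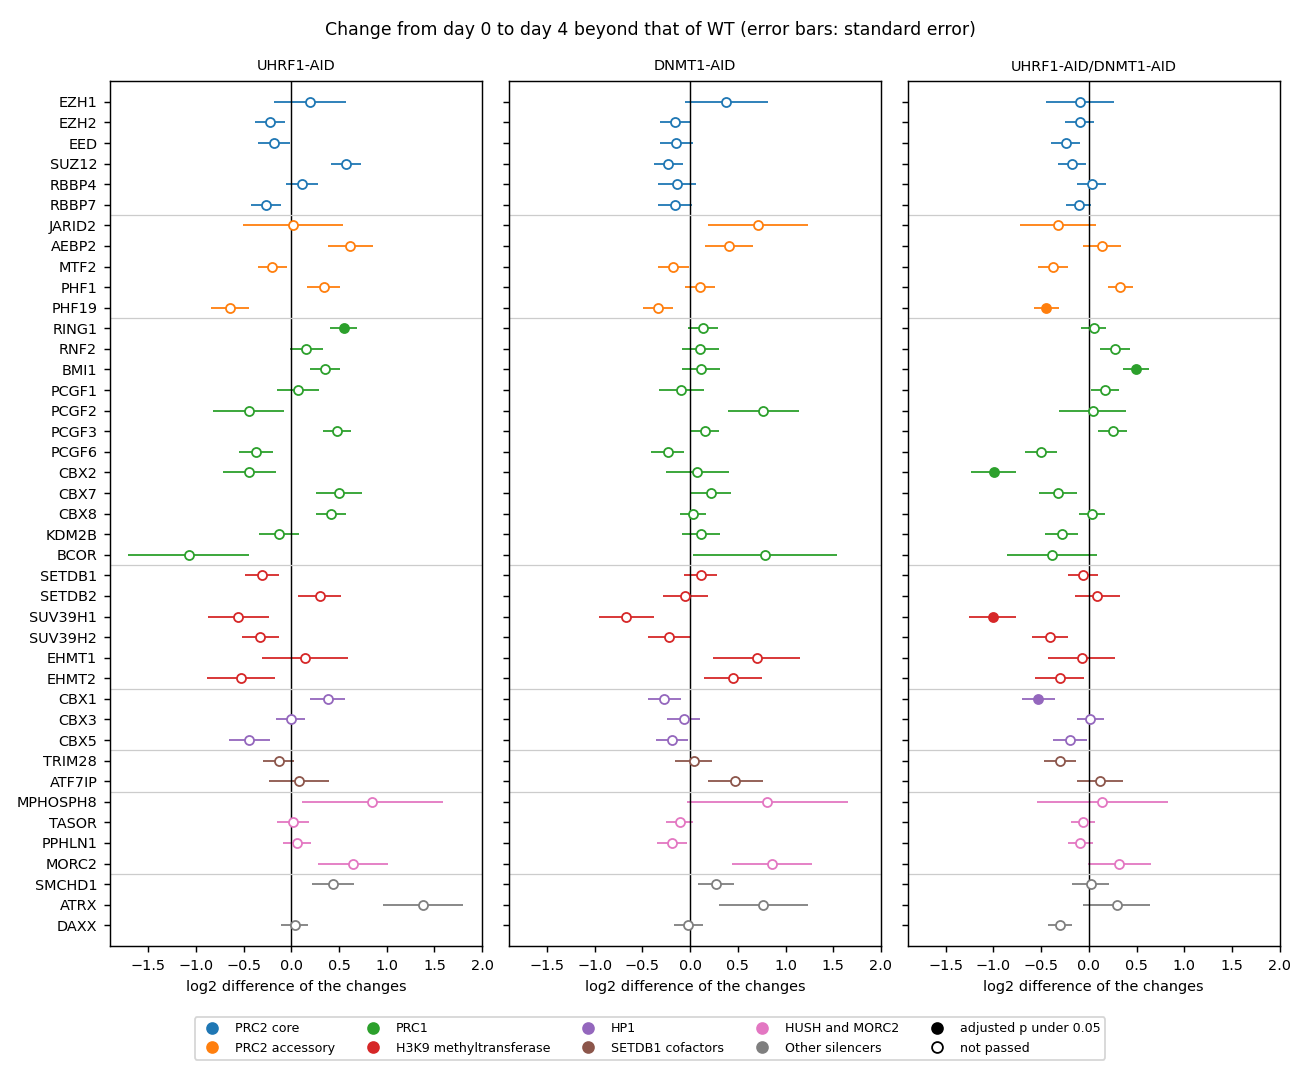
Change from day 0 to day 4 beyond that of WT (x axis, log2 difference of the changes, bars give the standard error) for each member (rows, by role), with filled points where the adjusted p was under 0.05. SUV39H1 and CBX2 lie farthest left among the filled points of the UHRF1-AID/DNMT1-AID panel, and no point is filled for DNMT1-AID.

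The AID lines were also compared with each other at day 4. UHRF1-AID stood above DNMT1-AID in SUZ12 by 0.84 (SE 0.10), CBX1 by 0.83 (SE 0.11), ATRX by 1.18 (SE 0.22), RING1 by 0.43 (SE 0.11) and PCGF3 by 0.46 (SE 0.11), and below it in PCGF6, the PRC1.6 subunit, at -0.50 (SE 0.13). The 5 members higher (12.2%) and 1 lower (2.44%) stand beside 6.79% and 7.09% of all genes, and all cross folders. SUZ12 and CBX1 passed in each fit that left out 1 library, and the 6 calls became 2 without DNMT1-AID replicate 2, 3 without DNMT1-AID replicate 1 or 3 or UHRF1-AID replicate 3, and 13 without UHRF1-AID replicate 2. With both proteins degraded rather than DNMT1 alone, a comparison within folder 2, BMI1 was higher by 0.29 (SE 0.09, adjusted p = 0.027) and PCGF6 and CBX2 were lower at a log2 fold change of -0.33 (SE 0.10, adjusted p = 0.024) and -0.47 (SE 0.14, adjusted p = 0.027). That is 2.44% and 4.88% of members, against 10.7% and 9.79% of all genes. The 3 calls became 0 without UHRF1-AID/DNMT1-AID replicate 1, and 1 without DNMT1-AID replicate 1 or UHRF1-AID/DNMT1-AID replicate 2.

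Genes of the same pathways outside the members were counted too. Of 23 other Polycomb genes, 2 were higher and 0 lower than WT at day 4 in UHRF1-AID (of 21 tested), 1 were higher and 1 lower for DNMT1-AID (of 21), and 3 were higher and 2 lower for UHRF1-AID/DNMT1-AID (of 22). In the same order these are 9.52% and 0%, 4.76% and 4.76%, and 13.6% and 9.09% of the list. The shares of all genes tested were 10.9% and 6.57%, 5.02% and 2.93%, and 20.4% and 17.8%. EZHIP, an inhibitor of PRC2, had 0 counts in every WT library and in every UHRF1-AID and DNMT1-AID library of day 0, and at most 1 count in UHRF1-AID/DNMT1-AID at day 0. At day 4 it reached 3.32, 5.29 and 7.35 CPM in UHRF1-AID/DNMT1-AID, with 53 to 120 counts, at least 17.2-fold higher in each library than the 0.193 CPM that 3 counts in a WT library would give. In UHRF1-AID it had 3 to 19 counts and in DNMT1-AID 0 to 4, and it was not tested in these lines because it did not pass the filter on low counts. The PRC1 subunit PHC2 was lower in DNMT1-AID and UHRF1-AID/DNMT1-AID, at log2 fold changes of -0.32 (SE 0.09) and -0.66 (SE 0.10). PHC2 was as far below WT before auxin, -0.41 (SE 0.13) in DNMT1-AID, which did not pass, and -0.82 (SE 0.11) in UHRF1-AID/DNMT1-AID, which did, at 203, 224 and 185 CPM in WT, 143, 174 and 156 in DNMT1-AID, with 123, 113 and 112 for UHRF1-AID/DNMT1-AID. In UHRF1-AID/DNMT1-AID the PRC1.1 subunit SKP1 was higher by 0.54 (SE 0.10) and WDR5 lower at a log2 fold change of -0.49 (SE 0.11), and the PRC1.6 subunit MGA was higher in UHRF1-AID by 1.05 (SE 0.27). MGA stood there at 28.7, 17.0 and 27.6 CPM against 9.51, 10.3 and 16.3 in WT, the replicate order of ATRX, and this crosses folders.

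Of 25 other H3K9 silencing genes, 4 were higher and 0 lower than WT in UHRF1-AID, 0 were higher and 1 lower for DNMT1-AID, and 3 were higher and 3 lower for UHRF1-AID/DNMT1-AID (23 tested in each). In the same order these are 17.4% and 0%, 0% and 4.35%, and 13.04% and 13.04% of those tested. The shares of all genes tested were 10.9% and 6.57%, 5.02% and 2.93%, and 20.4% and 17.8%. MORC3 was higher in UHRF1-AID by 0.50 (SE 0.12) and lower in DNMT1-AID at -0.77 (SE 0.14). In DNMT1-AID it was as low before auxin, at 15.3, 13.9 and 14.6 CPM against 27.3, 27.6 and 25.7 in WT without overlap, a log2 fold change of -0.91 (SE 0.13, adjusted p = 0.43) that did not pass. MORC4 was lower in UHRF1-AID/DNMT1-AID at -0.65 (SE 0.13), beside -0.43 (SE 0.11) at day 0, which did not pass. LRIF1, a partner of HP1 and SMCHD1, was higher in UHRF1-AID and UHRF1-AID/DNMT1-AID by 0.52 (SE 0.12) and 0.57 (SE 0.12). CHD4, the remodeller of the NuRD complex, was higher in UHRF1-AID by 1.76 (SE 0.33), and like ATRX it stood at 22.5, 21.6 and 34.7 CPM there against 5.14, 6.61 and 12.04 in WT, which crosses folders. Before auxin CHD4 was higher than WT in UHRF1-AID/DNMT1-AID by 0.72 (SE 0.12). HDAC2 and KDM1A were lower in UHRF1-AID/DNMT1-AID at -0.37 (SE 0.09) and -0.34 (SE 0.09). Of 19 genes listed as opposing these marks, 2 were higher and 0 lower in UHRF1-AID, 0 were higher and 0 lower for DNMT1-AID, and 2 were higher and 2 lower for UHRF1-AID/DNMT1-AID (17 tested). These are 11.8% and 0%, 0% and 0%, and 11.8% and 11.8% of the list, beside the shares of all genes given above. The demethylase KDM7A was higher in UHRF1-AID and UHRF1-AID/DNMT1-AID by 0.74 (SE 0.18) and 0.50 (SE 0.12), JMJD1C was higher in UHRF1-AID by 1.05 (SE 0.29), ASXL1 was higher in UHRF1-AID/DNMT1-AID by 0.44 (SE 0.14), and MYSM1 and KDM4A were lower there at log2 fold changes of -0.51 (SE 0.17) and -0.37 (SE 0.14). At day 0 in that line KDM4A stood at -0.47 (SE 0.13) and KDM7A, on the other side of WT, at -0.70 (SE 0.17), neither of which passed.

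Proliferation markers were read in the same groups. Their summed level (16 genes) was 2889 to 3679 CPM in WT at day 0 and 1929 to 2127 at day 4, where it was 1581 to 2029 in DNMT1-AID, 1013 to 1697 in UHRF1-AID and 1384 to 1544 in UHRF1-AID/DNMT1-AID. Against WT at day 4, 5, 5 and 12 of 16 were lower, in the order UHRF1-AID, DNMT1-AID, UHRF1-AID/DNMT1-AID, and none was higher, with median log2 fold changes of -0.49, -0.21 and -0.64 in the same order. That is 31.25%, 31.25% and 75% of the markers, against 6.57%, 2.93% and 17.8% of all genes. Between days 9, 14, 14 and 15 of 16 were lower, in the order of lines WT, UHRF1-AID, DNMT1-AID, UHRF1-AID/DNMT1-AID. Of all genes, 17.8%, 22.9%, 20.8% and 32.5% were lower between days in that order. In UHRF1-AID/DNMT1-AID the replication licensing genes MCM2, MCM4, MCM6 and MCM7 were lower than WT at log2 fold changes of -0.86 (SE 0.10), -0.75 (SE 0.09), -0.70 (SE 0.09) and -0.94 (SE 0.11), cyclin A2 (CCNA2) at -0.88 (SE 0.11) and thymidylate synthase (TYMS) at -0.84 (SE 0.11). The part of these markers in the falls of EZH2, PHF19, SUV39H1, CBX1 and CBX5 was not tested. Against WT at day 4, CBX1 in UHRF1-AID stood at 0.43, which did not pass and crosses folders. Between days within UHRF1-AID, where all libraries share a folder, CBX1 fell. Colon markers differed too: CDX2 was higher in UHRF1-AID and UHRF1-AID/DNMT1-AID by 0.94 (SE 0.14) and 1.32 (SE 0.12), KRT18 was higher in DNMT1-AID by 0.34 (SE 0.09), CDH1 was higher in DNMT1-AID and UHRF1-AID/DNMT1-AID by 0.38 (SE 0.11) and 0.27 (SE 0.10), and KRT19 and KRT8 were lower in UHRF1-AID/DNMT1-AID at -0.68 (SE 0.11) and -0.28 (SE 0.10). At day 0 KRT8 and KRT18 were higher than WT in UHRF1-AID/DNMT1-AID, by 0.52 (SE 0.11) and 0.50 (SE 0.10). Of the markers of other cell types, COL1A1 was higher in UHRF1-AID/DNMT1-AID, by 1.64 (SE 0.30), at 17.7, 15.4 and 19.8 CPM, with CD68 and COL3A1 at 0 counts in that group. In bulk libraries, fewer cells with a transcript and less of it per cell cannot be told apart.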

How the data were processed

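Poly-A RNA of HCT116 cells was sequenced as paired ends in 24 libraries, 3 in each of 8 groups taken from the labels. The authors deposited raw counts per gene, made per the labels with STAR and featureCounts on hg38. Annotation release, strand and multi-mapping settings are not given in the sources used here. The 92 spike-in rows entered neither library sizes nor tests. They took 0.891% to 1.65% of counts in the 9 libraries that hold them. Between 15824804 and 25073821 counts on genes per library set the precision.

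Counts were tested with edgeR 4.0.16 (R 4.3.3): TMM scaling, the default filter on low counts, a robust quasi-likelihood fit of the groups compared, and Benjamini-Hochberg adjustment over all genes. CPM are TMM-scaled, RPKM divide them by exon length, and SE is that of the log2 fold change. Tables and plots used Python 3.11.15, pandas 2.3.3 and matplotlib 3.10.9, and the scripts were tested on simulated data. Replicate pairs differed beyond sampling noise (chi-square per degree of freedom 3.52 to 59.2), so none was counted as a duplicate. Same-numbered libraries deviated together most in UHRF1-AID between days (correlations 0.122 to 0.228), as read from the data. With the number as a block, 24 members passed there against 23. Correlations were smaller but all positive in UHRF1-AID/DNMT1-AID between days (0.0789 to 0.0915) and against WT at day 0 (0.0129 to 0.0758). Alternatives were DESeq2 1.42.0, DESeq2-style size factors, no filter, all 24 libraries in 1 fit, the replicate block, a gene length correction and leaving out each library. Values in every library are given for up to 12 members that passed in a day 4 comparison with WT, in order of smallest p, and always for EZH2, SUZ12, SETDB1, SUV39H1, EHMT2, TRIM28 and CBX5. Up to 6 genes of each other list are named by the same order. Some genes of these lists are counted but not reported here by name. The members, gene lists and rules were chosen with earlier results of these data known. Promoter windows are RefSeq's, GRCh38.p14, without those on chromosome 8.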

Additional observations from a re-analysis of the deposited data

Results flagged for a closer look

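The change from day 0 to day 4 differed from that of WT, by a test of the difference itself (edgeR's quasi-likelihood test), for 6 members. In UHRF1-AID/DNMT1-AID the log2 differences were -1.01 for SUV39H1, -0.996 for CBX2, -0.53 for CBX1, -0.45 for PHF19 and 0.49 for BMI1. These are 9.76% of members lower and 2.44% higher, against 9.12% and 6.14% of all genes. SUV39H1 and CBX2 passed in all 12 fits that left out 1 library, BMI1 in 9, PHF19 in 5 and CBX1 in 3. Under the other 6 settings SUV39H1, CBX2 and BMI1 passed in each, CBX1 in 2 and PHF19 in 1. Before auxin the mean of CBX2 in this line stood above that of WT, and the mean of BMI1 below it. In UHRF1-AID the difference was 0.55 for RING1, and there the alignment folders do not cancel. That is 2.44% of members, against 3.62% of all genes, and RING1 passed in 1 of the 12 fits and not with DESeq2-style size factors, no filter or the replicate block.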

How the results depend on the processing

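Of 198 counts of members called under alternatives, 134 were within 1.5 times the reported count, and of 2028 values of single members 1725 kept direction and call, 287 lost the call, 16 gained it and 0 turned direction. Leaving out 1 library, the counts ranged from 2 to 15 for UHRF1-AID against WT at day 4, from 0 to 9 for DNMT1-AID against WT, from 5 to 15 for UHRF1-AID/DNMT1-AID against WT, and from 0 to 15 for UHRF1-AID/DNMT1-AID against WT at day 0. Between days they ranged from 10 to 24 in WT, 16 to 26 in UHRF1-AID, 12 to 24 in DNMT1-AID and 34 to 35 in UHRF1-AID/DNMT1-AID. Between lines they ranged from 2 to 13 for UHRF1-AID against DNMT1-AID and from 0 to 3 for UHRF1-AID/DNMT1-AID against DNMT1-AID. Beyond WT they ranged from 0 to 3 in UHRF1-AID and from 2 to 8 in UHRF1-AID/DNMT1-AID.

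With all 24 libraries in 1 fit, the count was 17 for UHRF1-AID against WT at day 4, 1 for UHRF1-AID/DNMT1-AID against WT at day 0, 11 for UHRF1-AID against DNMT1-AID, 0 for UHRF1-AID/DNMT1-AID against DNMT1-AID and 4 beyond WT in UHRF1-AID. With no filter it was 1, 11, 5 and 2 for the last 4 of these. DESeq2 gave 2 for UHRF1-AID/DNMT1-AID against WT at day 0 and 4 beyond WT in UHRF1-AID. DESeq2-style size factors gave 0 beyond WT in UHRF1-AID and 3 in UHRF1-AID/DNMT1-AID. The gene length correction gave 2 at day 0 in UHRF1-AID/DNMT1-AID, and 3 beyond WT in UHRF1-AID and in UHRF1-AID/DNMT1-AID. With the replicate block the count was 10 between days in WT, 3 for UHRF1-AID against DNMT1-AID, 0 beyond WT in UHRF1-AID and 3 in UHRF1-AID/DNMT1-AID. The labels tie libraries by number only, and correlations outside UHRF1-AID between days were -0.622 to 0.235. In UHRF1-AID between days, where the correlations were 0.122 to 0.228, the block lost EED and gained RBBP7 and ATRX. The cause of these changes was not tested.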
